A study of Rattus norvegicus with 4 samples.

Results

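The 7 genes Cbln1, Rprm, Acvr1c, Sorcs3, Epcam, Crabp2 and Prss35 were described across the 4 arrays of a study of hippocampal injury in Sprague-Dawley rats. They were selected on measured values. Ranks and shares of genes below are among 9489 genes past an intensity filter, of 14217 singly named genes. The 7 were chosen by a low KA+NAP minus KA difference or by a low interaction. The interaction is the KA+NAP minus NAP difference less the KA minus PBS difference. Every contrast among the 4 arrays enters these measures, so the values below describe the choice and carry no test. One array each represented animals whose hippocampus was injected with KA and NAP together (NAP given in the labels at 1e-13 M), with KA alone, with NAP alone, or with PBS as the vehicle. KA is kainic acid, an excitotoxin that activates kainate-type glutamate receptors, and NAP is a short neuroprotective peptide from activity-dependent neuroprotective protein. RNA was taken from area CA3 24 h after injection. The labels give no sex, no age, no KA dose, no NAP concentration for the NAP array and no number of animals behind an array. Each group was a single array, so every difference below is between single arrays and has no replicate check.

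The 7 genes do not form one known pathway. Cbln1 encodes cerebellin 1, a secreted protein related to complement C1q that bridges presynaptic neurexins and postsynaptic delta-type glutamate receptors and is best known from the cerebellum. Acvr1c encodes ALK7, a type I receptor of the activin and nodal branch of the TGF-beta family, and Sorcs3 encodes a neuronal sorting receptor of the sortilin (VPS10 domain) family. Rprm (reprimo) is a p53-induced gene whose product halts the cell cycle before mitosis. Crabp2 carries retinoic acid to its nuclear receptors, Epcam is an adhesion molecule of epithelial cells, and Prss35 is a secreted serine-protease-like protein whose nearest relative is Prss23.

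Signals are MAS5 intensities on a linear scale, and differences are of log2(intensity + 10). Cbln1 had an intensity of 85 on the KA+NAP array, 521 on the KA array, 82 on the NAP array and 30 on the PBS array. Its KA signal stood apart from the other 3, and the KA+NAP and NAP signals were nearly equal. The log2 difference was -2.48 for KA+NAP minus KA and 3.73 for KA minus PBS, but 0.05 for KA+NAP minus NAP. Its own NAP minus PBS difference was 1.20. Cbln1 had the lowest KA+NAP minus KA difference of all 9489 genes.

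Rprm had intensities of 194 with KA+NAP, 975 with KA, 89 with NAP and 54 with PBS. Its KA+NAP signal lay further above the NAP signal than that of Cbln1 did. The log2 difference was -2.27 for KA+NAP minus KA, 3.94 for KA minus PBS and 1.04 for KA+NAP minus NAP. The last of these was close to 2-fold and fell below it with a pseudocount of 50 (0.81), quantile normalization (0.98) and median scaling (0.96).

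Acvr1c, the activin-type receptor gene, was at 79 with KA+NAP, 464 with KA, 84 with NAP and 86 with PBS. The 3 arrays other than KA lay within 7 intensity units of each other. Its log2 differences were -2.41 for KA+NAP minus KA, 2.30 for KA minus PBS and -0.08 for KA+NAP minus NAP. Sorcs3, the sorting receptor gene, was at 189 with KA+NAP, 758 with KA, 206 with NAP and 241 with PBS. Again the 3 arrays other than KA lay close together. The KA+NAP minus KA difference of Sorcs3 was -1.95, its KA minus PBS difference 1.61 and its KA+NAP minus NAP difference -0.12. Acvr1c and Sorcs3 had the most similar profiles of any pair among the 7, with a root-mean-square distance of 0.25 log2 units over the 4 arrays after each gene was centred on its own mean.

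Epcam gave 63 with KA+NAP, 287 with KA, 28 with NAP and 27 with PBS. The KA+NAP signal was therefore intermediate, with log2 differences of -2.02 for KA+NAP minus KA and 0.94 for KA+NAP minus NAP. Its KA minus PBS difference was 3.005.

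Crabp2 and Prss35 did not share the pattern of the other 5. Crabp2 was at 148 with KA+NAP, 282 with KA, 120 with NAP and 33 with PBS, so that the KA+NAP, KA and NAP arrays all lay above PBS. Its KA+NAP minus KA difference of -0.89 did not reach 2-fold and was the 79th lowest. It entered through its interaction of -2.48, which was the 8th lowest and rests on a NAP minus PBS difference of 1.60. Prss35 was at 19 with KA+NAP, 100 with KA, 166 with NAP and 36 with PBS. Its highest signal was on the NAP array, not the KA array, so the name of a gene high with kainate does not describe it. Its differences were -1.92 for KA+NAP minus KA, 1.26 for KA minus PBS, -2.60 for KA+NAP minus NAP and 1.94 for NAP minus PBS. The KA effect on Prss35 thus had opposite signs with and without NAP, and its interaction was -3.86, the lowest of all genes on this scale. That rank rests on dim signals: with a pseudocount of 50 the interaction of Prss35 was -2.45 and that of Cbln1 -2.80, and with a pseudocount of 1 Prss35 was the 2nd lowest.

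**Figure D1:**
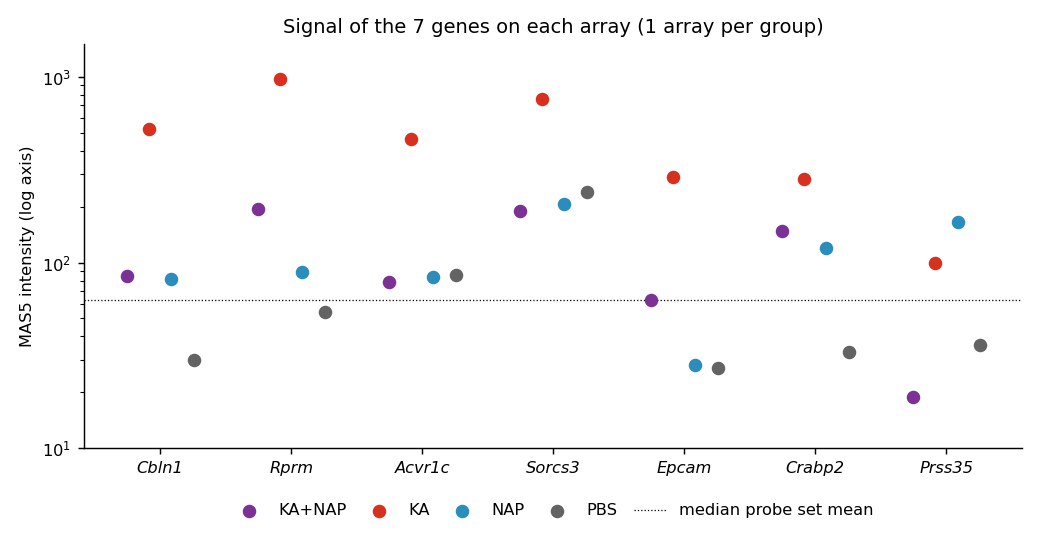
MAS5 intensity (log axis) of each of the 7 genes on the KA+NAP, KA, NAP and PBS arrays, 1 point per array; the dotted line is the median of the probe set means, 62.75. The KA point is the highest for 6 genes, while Prss35 is highest on the NAP array at 166.

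Across the 7 genes, 6 were at least 2-fold lower in KA+NAP minus KA, where 0.601% of all 9489 genes were, and all 7 exceeded 2-fold in KA minus PBS, where 4.91% did (6 of the 7 with a pseudocount of 50, which put Prss35 at 0.80). The interaction was at or below the equivalent of a 2-fold decrease for all 7, as it was for 1.75% of all genes. These shares describe how the genes were picked. The median difference of the 7 was -2.02 in KA+NAP minus KA, against a median of 0.03 over all genes, and 2.76 in KA minus PBS, against 0.02. In KA+NAP minus NAP, Rprm was the 1 gene past 2-fold upward (5.66% of all genes; with a pseudocount of 1 Epcam also passed, at 1.14) and Prss35 the 1 past it downward (2.41% of all genes), with a median of 0.05 for the 7. NAP minus PBS gave 3 that were at least 2-fold higher, Cbln1, Crabp2 and Prss35, where 1.05% of all genes were, and a median of 0.63. The Cbln1 difference was below 2-fold with a pseudocount of 50 (0.72) and with the mean of its probe sets (0.87). Against the NAP array, the other array without KA, 6 of the 7 were at least 2-fold higher with KA (3.18% of all genes), and Prss35 was lower by less than that, at -0.68.

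All 7 passed the filter, which asks for a mean intensity above 62.75 over the 4 arrays. That mean includes the KA array. Without it, the mean was 65.7 for Cbln1, 112 for Rprm, 83.0 for Acvr1c, 212 for Sorcs3, 100.3 for Crabp2, 73.7 for Prss35 and 39.3 for Epcam. Epcam thus passed only through its KA signal. Prss35 passed only through its NAP signal of 166, as it was at 19 with KA+NAP, 100 with KA and 36 with PBS. On the PBS array, Cbln1, Rprm, Epcam, Crabp2 and Prss35 were all below the threshold, so their fold differences from PBS are between a measured signal and a dim one. Acvr1c and Sorcs3 were above it on all 4 arrays.

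Cbln1 and Sorcs3 each had a second probe set, which the choice did not use but which was read from the same arrays. The second Cbln1 probe set gave 34 with KA+NAP, 261 with KA, 32 with NAP and 19 with PBS, with a KA+NAP minus KA difference of -2.62. Its order of arrays was that of the first. The second Sorcs3 probe set gave 149 with KA+NAP, 374 with KA, 128 with NAP and 131 with PBS, a KA+NAP minus KA difference of -1.27. In both pairs the KA array was the highest and the other 3 lay close together, apart from the lower PBS signal of Cbln1. Each of the other 5 genes had 1 probe set.

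**Figure D2:**
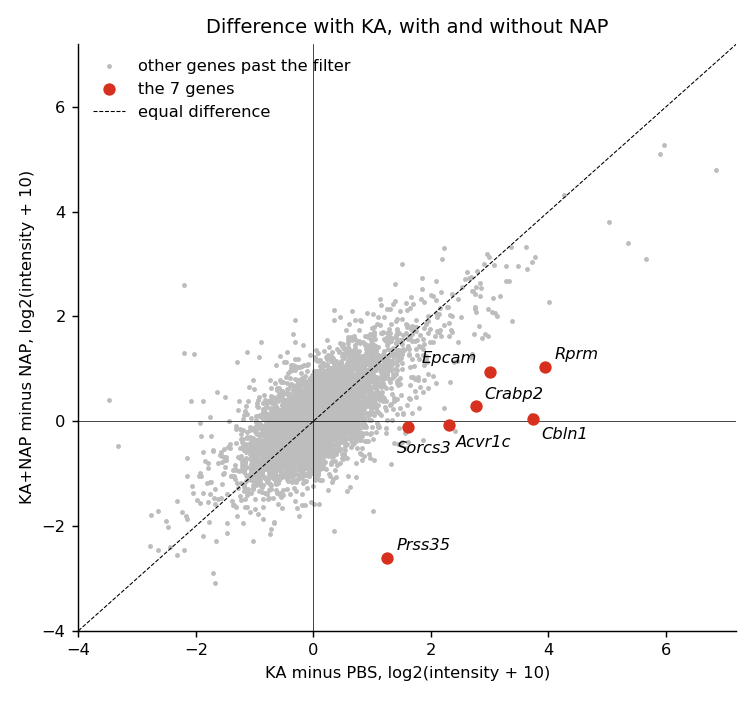
Difference of log2(intensity + 10) for KA minus PBS (x axis) and KA+NAP minus NAP (y axis) for the 9489 genes past the filter; the dashed line marks equal differences. The 7 genes, in red, lie to the right of the dashed line: Cbln1 at 3.73 and 0.05, Rprm at 3.94 and 1.04, and Prss35 below the others at 1.26 and -2.60.

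The choice rested on low values of 2 differences with no stated threshold, and not every low gene was taken. Among the lowest KA+NAP minus KA differences, 6 of the 7 genes held ranks 1, 3, 4, 7, 8 and 9. Between them stood Ttr, the thyroxine carrier of choroid plexus, at -2.43, the collagen cross-linking enzyme gene Lox at -2.10 and the opioid peptide precursor Pdyn at -2.03. Just outside was the enkephalin precursor Penk at -1.91, next to Prss35 at -1.92. These neighbours had different profiles. Ttr was at 76 with KA+NAP and at 453, 359 and 354 on the KA, NAP and PBS arrays, a signal low on the KA+NAP array alone. Lox was at 332 with KA+NAP, 1458 with KA, 30 with NAP and 19 with PBS, so that KA+NAP was well above both arrays without KA. Pdyn was at 561 with KA+NAP, 2330 with KA, 1858 with NAP and 1146 with PBS.

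A signal at least 2-fold higher on the KA array than on each of the other 3 arrays was uncommon. It was found for 22 genes, 0.232% of the 9489. The same count was 77 genes (0.811%) for the KA+NAP array, 9 genes (0.0948%) for the NAP array and 5 genes (0.0527%) for the PBS array. The filter mean includes the array being counted. Among the 22, Epcam, Serpina11, Rpain, Efna5, Pygl and Gypc passed the filter only through their KA signal. The 22 included 5 of the 7 genes, Cbln1, Acvr1c, Rprm, Epcam and Sorcs3, at ranks 1, 2, 3, 5 and 7 by the margin of KA over the next highest array. Crabp2 fell short with a margin of 0.89, and Prss35 had none. With the NAP array left out the count was 27 genes, 6 of the 7 among them, and with the PBS array left out it was 27 with 5 of the 7.

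Penk, Npy and Bdnf, 3 of the 22, were on the list of activity-regulated secreted factors. Penk was at 429 with KA+NAP, 1635 with KA, 358 with NAP and 341 with PBS. Npy, the precursor of neuropeptide Y, was at 1868 with KA+NAP, 4142 with KA, 838 with NAP and 749 with PBS. The neurotrophin gene Bdnf was at 594, 1412, 642 and 655 on the KA+NAP, KA, NAP and PBS arrays. Bdnf resembled Acvr1c and Sorcs3 in that the 3 arrays other than KA lay close together, whereas Npy resembled Rprm in having a KA+NAP signal between those of the KA array and of both arrays without KA. The prostaglandin E2 receptor gene Ptger3 was at 53 with KA+NAP, 214 with KA, 73 with NAP and 63 with PBS. Perp, a p53 target of cell junctions, was at 234 with KA+NAP, 786 with KA, 340 with NAP and 256 with PBS.

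**Figure D3:**
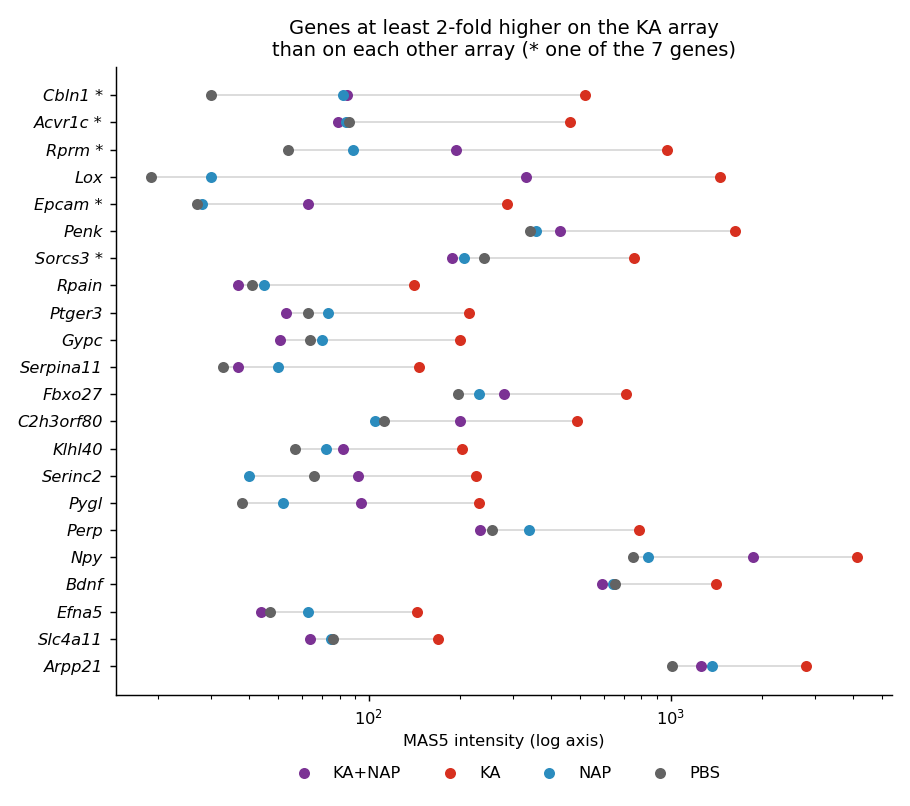
MAS5 intensity (log axis) on the 4 arrays of the 22 genes at least 2-fold higher with KA than on each other array, ordered by that margin; asterisks mark 5 of the 7 genes. Cbln1, Acvr1c and Rprm have the widest margins, and Penk, Npy and Bdnf are also present.

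Likeness to the 7 genes was measured as the root-mean-square distance, over the 4 arrays, between centred log2 values. The 7 themselves were left out of each search for the nearest genes. The 10 genes nearest to the mean profile of the 7 were, in order, Penk, Serpina11, Pygl, Fbxo27, Klhl40, Ptger3, Rpain, C2h3orf80, Perp and Rgs4, at distances from 0.24 to 0.42. Penk was also the nearest gene outside the 7 to Acvr1c (0.19) and to Cbln1 (0.55). Npy was nearest to Epcam (0.33) and Rprm (0.55), Rpain to Sorcs3 (0.15), the metalloproteinase gene Adamts9 to Crabp2 (0.34) and Pdyn to Prss35 (0.47). Prss35 itself was 1.07 from the mean profile, the farthest of the 7, and Acvr1c was 0.32 from it, the nearest. Within 0.5 log2 units there were 56 genes for Sorcs3, 33 for Crabp2, 14 for Acvr1c, 10 for Epcam, 2 each for Cbln1 and Rprm, and 1 for Prss35. Unlike the searches above, these counts include the others of the 7. Cbln1 had Rprm (0.37) and Epcam (0.44) within that distance, and Rprm had Epcam (0.34) and Cbln1. No gene outside the 7 was that close to Cbln1 or Rprm. With 4 arrays such distances are a description only.

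The promoters of 5 of the 7 genes were in the RefSeq table for rat assembly GRCr8, and they are shown because all 5 genes, Rprm, Acvr1c, Sorcs3, Epcam and Crabp2, were highest on the KA array. The bases upstream of the transcription start are given 5′ to 3′ on the strand of the gene, and capitals mark matches on either strand to 6 motifs. These were the AP-1 site TGANTCA, the cAMP response element TGACGTCA, the SMAD palindrome GTCTAGAC, the GC box GGGCGG, the TATA box TATAAA and the nuclear receptor half-site AGGTCA. The window is chr3:58950036-58950285, minus strand, for Rprm, chr1:257040192-257040441, plus strand, for Sorcs3, chr6:12649679-12649928, minus strand, for Epcam, and chr2:175714612-175714861, plus strand, for Crabp2. For Acvr1c the window printed is chr3:63301253-63301404, minus strand, the 152 bases that lie outside a longer transcript model.
Rprm: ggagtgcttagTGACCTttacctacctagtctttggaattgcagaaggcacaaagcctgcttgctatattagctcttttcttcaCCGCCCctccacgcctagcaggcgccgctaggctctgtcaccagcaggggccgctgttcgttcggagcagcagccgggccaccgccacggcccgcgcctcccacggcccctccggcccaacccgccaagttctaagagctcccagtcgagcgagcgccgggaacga
Acvr1c: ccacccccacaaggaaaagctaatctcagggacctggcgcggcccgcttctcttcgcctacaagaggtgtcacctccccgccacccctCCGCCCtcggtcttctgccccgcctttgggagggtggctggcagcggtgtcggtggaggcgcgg
Sorcs3: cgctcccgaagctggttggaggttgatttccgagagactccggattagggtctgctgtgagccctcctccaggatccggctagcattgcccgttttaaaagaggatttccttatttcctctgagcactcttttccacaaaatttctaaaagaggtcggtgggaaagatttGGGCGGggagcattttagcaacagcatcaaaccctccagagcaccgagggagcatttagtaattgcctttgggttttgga
Epcam: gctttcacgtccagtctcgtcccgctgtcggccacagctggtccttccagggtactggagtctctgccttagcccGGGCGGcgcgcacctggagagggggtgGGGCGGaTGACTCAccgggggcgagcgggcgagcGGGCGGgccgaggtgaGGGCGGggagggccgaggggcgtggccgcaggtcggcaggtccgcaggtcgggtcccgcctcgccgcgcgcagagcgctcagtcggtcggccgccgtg
Crabp2: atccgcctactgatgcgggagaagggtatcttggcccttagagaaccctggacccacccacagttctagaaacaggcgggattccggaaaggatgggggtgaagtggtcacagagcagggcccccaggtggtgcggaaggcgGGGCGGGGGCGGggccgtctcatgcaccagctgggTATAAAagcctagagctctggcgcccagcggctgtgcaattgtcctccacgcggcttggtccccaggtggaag
All 5 held at least 1 GC box in their 250 upstream bases, as did 30.5% of 33469 rat promoter windows of that length. The GC content was 49.6% for Sorcs3 and between 63.2% and 75.6% for the other 4, against a median of 51.2% over all windows. Epcam had 4 GC boxes and the only AP-1 match, 141 bases before the start (6.34% of all windows hold one). The only TATA box was 73 bases before the Crabp2 start (12.9% of all windows). Rprm had the only nuclear receptor half-site, 239 bases before its start (14.1%). No cAMP response element (1.59%) and no SMAD palindrome (0.173%) lay in these 5 windows. A match or its absence in such a window is a description only.

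Acvr1c was set beside a list of 25 genes of activin and nodal signalling, of which 20 were on the array and 11 passed the filter. Of these 11, Inhba and Fstl3 exceeded 2-fold upward in KA minus PBS (4.91% of all genes did) and Inhbb downward (2.39%). None reached 2-fold in either direction in KA+NAP minus KA (1.52% of all genes were higher and 0.601% lower). The list had medians of 0.64 in KA minus PBS and -0.21 in KA+NAP minus KA. Inhba, the activin A subunit, was at 767 with KA+NAP, 1534 with KA, 138 with NAP and 160 with PBS. Its log2 differences were 3.18 for KA minus PBS and -0.99 for KA+NAP minus KA, and unlike Acvr1c it was also high with KA+NAP relative to NAP (2.39). Inhbb, the activin B subunit, ran the other way, at 45 with KA+NAP, 30 with KA, 79 with NAP and 168 with PBS (KA minus PBS -2.15). Fstl3, a secreted activin antagonist, was at 111 with KA+NAP, 147 with KA, 20 with NAP and 8 with PBS, a difference of 3.12 in KA minus PBS and 2.01 in KA+NAP minus NAP. The type I receptor Acvr1 was at 426 with KA+NAP, 678 with KA, 341 with NAP and 556 with PBS. The signal transducers Smad2 and Smad4 had differences of 0.71 and 0.85 in KA minus PBS, and the inhibitory Smad7 0.79.

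Cbln1 had 1 cerebellin relative among the singly named genes, Cbln2, which was at 117 with KA+NAP, 196 with KA, 164 with NAP and 145 with PBS. The order of KA+NAP and KA was that of Cbln1, and the log2 differences of -0.70 for KA+NAP minus KA and 0.41 for KA minus PBS did not reach 2-fold. None of the 6 listed relatives and receptors past the filter reached 2-fold in KA minus PBS or KA+NAP minus KA. The neurexin genes Nrxn2 and Nrxn3, whose products bind cerebellins, had KA minus PBS differences of -0.50 and 0.13. The delta receptor gene Grid1 was dim, at 10 with KA+NAP, 20 with KA, 16 with NAP and 26 with PBS. The C1q-like gene C1ql3 was at 456 with KA+NAP, 379 with KA, 1000 with NAP and 599 with PBS.

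None of the other 4 measured members of the Sorcs3 family reached 2-fold in KA minus PBS or KA+NAP minus KA. Sorcs1 came nearest, at 138 with KA+NAP, 177 with KA, 78 with NAP and 87 with PBS (KA minus PBS 0.95, KA+NAP minus KA -0.34). Sort1 and Sorl1 lay at -0.70 and -0.76 in KA minus PBS, and Sorcs2 at -0.39. In the wider list of VPS10 receptors, neurotrophins and their receptors, 10 of 11 genes on the array passed the filter. Bdnf was the 1 gene past 2-fold upward in KA minus PBS (1.10), where 4.91% of all genes were. It was also the 1 gene at least 2-fold lower in KA+NAP minus KA (-1.24), where 0.601% of all genes were. Pick1, whose product binds the tail of SorCS3, was at 377, 386, 424 and 405 on the KA+NAP, KA, NAP and PBS arrays, a range with no array set apart.

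Rprm and its paralog Rprml had opposite differences with KA. Rprml was at 555 with KA+NAP, 412 with KA, 655 with NAP and 806 with PBS, a KA minus PBS difference of -0.95. The p53 targets Gadd45a and Cdkn1a, which also halt the cell cycle, passed 2-fold upward in KA minus PBS (4.91% of all genes did). Their differences were 3.05 and 1.26, and the mitotic kinase gene Cdk1 also passed, at 1.5. These genes differed from Rprm in KA+NAP minus KA. Gadd45a was at 407 with KA+NAP and 463 with KA, Cdkn1a at 228 with KA+NAP and 303 with KA, and Cdk1 at 205 with KA+NAP and 89 with KA. Of the 7 genes of this list past the filter, none was lower by 2-fold and 1, Cdk1, was higher by as much in KA+NAP minus KA (1.52% of all genes were higher).

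Crabp2 was set beside 19 genes of retinoic acid handling, 11 of which passed the filter. None reached 2-fold in KA minus PBS, and the list median was -0.30. Its paralog Crabp1 was at 159 with KA+NAP, 56 with KA, 29 with NAP and 42 with PBS, highest on the KA+NAP array. Aldh1a2, an enzyme that makes retinoic acid, was at 180 with KA+NAP, 122 with KA, 321 with NAP and 121 with PBS, and so shared with Crabp2 a NAP signal above PBS (1.34 for Aldh1a2, 1.60 for Crabp2). Cyp26b1, which degrades retinoic acid, was at 415 with KA+NAP, 748 with KA, 334 with NAP and 597 with PBS. The receptor gene Rarb was at -0.64 in KA minus PBS.

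Epcam was set beside 14 other epithelial adhesion genes on the array, of which 3 passed the filter. The medians of these 3 were 0.52 in KA+NAP minus KA and -0.24 in KA minus PBS, both opposite in sign to Epcam. In KA minus PBS, Spint2 was at -0.24, Cd24 at -0.50 and Cd9 at 1.13. The claudin gene Cldn7, whose product pairs with EpCAM in epithelia, was at 1 with KA+NAP, 1 with KA, 2 with NAP and 1 with PBS. The keratin gene Krt19 did not exceed 4 and the E-cadherin gene Cdh1 did not exceed 14 on any array. Cldn3 and the protease gene St14 had the same order of arrays as Epcam, but neither passed the filter. The genes past the filter had other orders. Cldn4 was highest with KA+NAP, at 54, and Krt8 and Krt18 were highest with PBS, at 56 and 48. Cldn3 was at 13 with KA+NAP, 46 with KA, 10 with NAP and 8 with PBS, below the filter threshold throughout. St14 was at 66 with KA+NAP, 74 with KA, 49 with NAP and 39 with PBS, a narrower range than that of Epcam. The tetraspanin gene Cd9 was at 1641 with KA+NAP, 1139 with KA, 452 with NAP and 516 with PBS, and it was thus higher in both groups that received KA.

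Prss23, the nearest relative of Prss35, was at 1316 with KA+NAP, 1932 with KA, 787 with NAP and 1045 with PBS. The order of KA+NAP and KA was that of Prss35, but the NAP signal was the lowest of the 4. Of 8 listed brain serine proteases and serpins past the filter, 3 passed 2-fold upward in KA minus PBS (4.91% of all genes did). They were the urokinase gene Plau at 2.70, Klk6 at 1.89 and the tissue plasminogen activator gene Plat at 1.19. Klk8 passed 2-fold downward at -1.93 (2.39% of all genes did). Plau was at 220 with KA+NAP and 218 with KA. None of the 8 was at least 2-fold lower in KA+NAP minus KA (0.601% of all genes were). Klk8 was at least 2-fold higher there, at 1.10 (1.52% of all genes were).

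**Figure D4:**
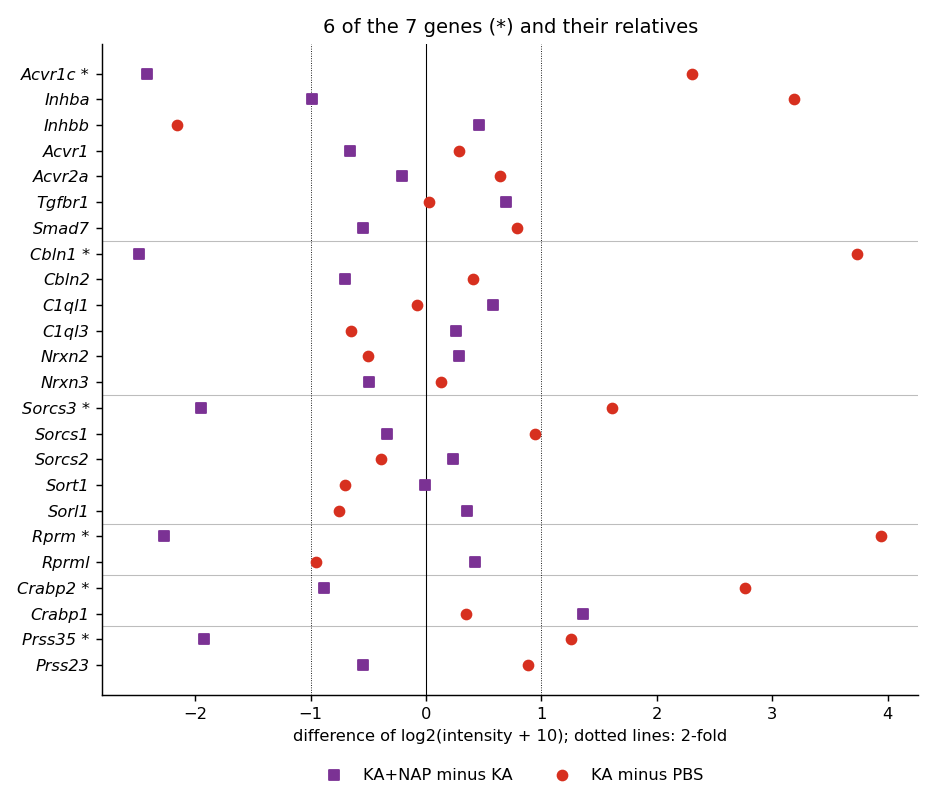
Difference of log2(intensity + 10) for KA+NAP minus KA (squares) and KA minus PBS (circles) for 6 of the 7 genes (asterisks) and relatives, ligands or partners of each, separated by grey lines; dotted lines mark 2-fold. Of the relatives shown, Inhba comes closest to Acvr1c in both plotted differences, at -0.99 and 3.18. Unlike Acvr1c, it was also high in KA+NAP minus NAP (2.39). Rprml lies opposite to Rprm at 0.42 and -0.95.

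Secreted factors that respond to neuronal activity were listed as a comparison, and 15 of 16 were on the array and past the filter. In KA minus PBS, 9 of the 15 passed 2-fold upward (4.91% of all genes did) and none downward (2.39%). In KA+NAP minus KA, 4 were at least 2-fold lower, Pdyn, Penk, Bdnf and Npy (0.601% of all genes were), and none higher (1.52%). Others had similar signals with KA+NAP and KA: Trh, the thyrotropin-releasing hormone precursor, was at 1335 with KA+NAP and 1242 with KA, and the galanin precursor Gal at 504 with KA+NAP and 410 with KA. This list was drawn up with earlier results of these arrays known, and its counts are not independent of them.

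The tissue sampled can hold several cell types, and fewer cells of a type cannot be told apart from less RNA per cell. The summed intensity of 6 CA3 pyramidal markers was 1587 with KA+NAP, 2045 with KA, 2971 with NAP and 3198 with PBS. All 6 were on the array, with 5 past the filter and none at 0. Dentate granule cell markers, 7 of 9 on the array, summed to 2801 with KA+NAP, 3368 with KA, 4862 with NAP and 3632 with PBS, so the KA array was not the highest for them. CA1 markers, 5 of 6 on the array, summed to 2080 with KA+NAP, 602 with KA, 1709 with NAP and 2667 with PBS, lowest where the 7 genes were mostly highest. The part of these shifts in the values of the 7 genes was not tested.

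Meningeal and fibroblast markers moved with the NAP array, where Prss35, Crabp2 and Cbln1 were above PBS. The 8 markers, all on the array and none at 0, summed to 1252 with KA+NAP, 839 with KA, 2067 with NAP and 1046 with PBS. Of the 6 past the filter, 4 were at least 2-fold higher in NAP minus PBS (1.05% of all genes were), with a median of 1.48. The haemoglobin gene Hbb was at 1549 with KA+NAP, 186 with KA, 1430 with NAP and 5 with PBS. The choroid plexus and ependymal list, 7 of 8 on the array with 3 past the filter, summed to 1133 with KA+NAP, 1768 with KA, 1835 with NAP and 1637 with PBS. Ttr, Enpp2 and Folr1 were lower with KA+NAP than with KA, at 76 against 453, 818 against 1111 and 32 against 54. Foxj1, Aqp1, Kcnj13 and Kl were higher. Microglia and macrophage markers, all 6 on the array with 5 past the filter, summed to 1812 with KA+NAP, 921 with KA, 1755 with NAP and 1810 with PBS. The purinergic receptor gene P2ry12 made up much of the sums without KA, at 368 with KA+NAP, 232 with KA, 773 with NAP and 1071 with PBS. By genes, the list median was 1.11 in KA+NAP minus KA and 0.10 in KA minus PBS. Aif1, Cd68 and Itgam, 3 of the 5, passed 2-fold upward in KA+NAP minus KA (1.52% of all genes did). Interneuron, astrocyte, oligodendrocyte and endothelial lists had medians between -0.09 and -0.05 in KA minus PBS. As for RNA integrity, beta-actin control signal at the 3′ end over that at the 5′ end was 15.5 with KA+NAP, 11.4 with KA, 7.92 with NAP and 14.1 with PBS. The same ratio for the Gapdh control had a narrower range, at 1.56 with KA+NAP, 1.31 with KA, 1.40 with NAP and 1.45 with PBS. What these shifts contributed to the 7 genes was not tested.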

How the data were processed

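Affymetrix arrays held RNA of rat hippocampal area CA3, 1 array for each of 4 groups, made from 500 ng total RNA with a 2-cycle amplification, per the labels' protocols. The deposited intensities were linear whole numbers computed by the authors with MAS5, per the submitters' processing notes; its version and settings: not given in the sources used here. Detection calls were not used. Array medians lay between 58 and 65, and the scaling was kept as deposited.

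Probe sets were named from the platform annotation, with symbols updated through Entrez identifiers (20764 of 20832 singly named probe sets matched GRCr8). Each gene took its brightest probe set by mean over the arrays, values were log2(intensity + 10), and genes passed with a mean above 62.75, the median over probe sets other than controls. The number of arrays limits the precision: no test, p-value or SE was possible, and 2-fold is a fixed rule of size. The scripts were tested on simulated data (Python 3.11.15, pandas 2.3.3, numpy 2.4.6).

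The 7 genes, the lists and the alternatives were chosen with earlier results of these data known. Genes were named if among the 7, the 10 nearest profiles, the nearest to each of the 7, the 4 largest of a list, or paralogs. Genes among the 15 lowest KA+NAP minus KA differences, or differences between the KA effects, could also be named. List genes beyond that (such as Cldn7, Krt19, Pick1, Grid1, Smad2 and Smad4) were picked after their values were seen, mostly by their known role. Npy, Bdnf and Perp met the rule, but were described among the 22 genes by known role after their values were seen. Efna5 was named for how it passed the filter. Promoter sequences are from RefSeq, GRCr8; none was used for Cbln1 and Prss35. Protein sequences were not used here. Alternatives were pseudocounts of 1 and 50, quantile and median scaling, the mean of all probe sets, other filters, and leaving out the NAP or PBS array, the last chosen after seeing the data.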

Additional observations from a re-analysis of the deposited data

Results flagged for a closer look

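Effects of opposite sign were found for the same agent in the presence and absence of the other. The difference between them was not tested, since each rests on single arrays. For KA, the log2 difference with NAP present (KA+NAP minus NAP) and without (KA minus PBS) was -0.0789 and 2.30 for Acvr1c, -0.12 and 1.61 for Sorcs3, and -2.60 and 1.26 for Prss35. The negative values of Acvr1c and Sorcs3 are close to 0, and that of Sorcs3 was 0.043 with the mean of its probe sets. For NAP, the difference with KA present (KA+NAP minus KA) and without (NAP minus PBS) was -2.48 and 1.20 for Cbln1, -2.27 and 0.63 for Rprm, -2.02 and 0.0385 for Epcam, -0.89 and 1.60 for Crabp2, and -1.92 and 1.94 for Prss35. The NAP minus PBS value of Epcam is also close to 0, at 28 against 27 intensity units, and was -0.015 with median scaling. These genes were chosen on those contrasts.

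Among the other genes named by the rule or on a list, 3 had opposite effects of at least 2-fold on both sides. For the KA effect with and without NAP, Pdyn gave -1.71 and 1.02, Fibcd1 1.30 and -2.20, and Pou3f1 1.28 and -2.04. For the NAP effect with and without KA, Fibcd1 gave 1.53 and -1.98, and Pou3f1 2.29 and -1.03. The last 2 are CA1 pyramidal markers and run against the 7 genes.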

How the results depend on the processing

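No paired analysis was possible because each group has 1 array, and for the same reason no replicate could be left out. Of 140 recomputed differences of the 7 genes (28 values under 5 settings), 133 moved by less than 1.5-fold, 7 moved further and 0 changed sign from a value of at least 2-fold. All 7 that moved did so with a pseudocount of 50, which also brought the median KA minus PBS difference of the 7 genes to 2.00. Calls at 2-fold ended for Prss35 in KA minus PBS (0.80 with a pseudocount of 50), for Cbln1 in NAP minus PBS (0.72 with that pseudocount, 0.87 with the mean of all probe sets) and for Rprm in KA+NAP minus NAP (0.81, 0.98 and 0.96 with that pseudocount, quantile and median scaling); 1 was gained, Epcam in KA+NAP minus NAP (1.14 with a pseudocount of 1). The count of genes at least 2-fold higher with KA than on each other array was 46 without a filter and 9 with the filter at the 75th percentile, against 22; it lay between 16 and 27 under the other settings, including those with the NAP or PBS array left out, which were chosen after seeing the data. The number of the 7 among them was 5 under each pseudocount, scaling and probe set setting. Low signal limits Epcam and Prss35 most, each below the filter threshold on 2 arrays.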
